A study of Mus musculus with 4 samples.

Results

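The extracellular matrix genes described here are Col1a1, Col1a2, Bgn, Fbln1 and Col5a1, which encode proteins of interstitial matrix, and Col4a1, Lamb1 and Hspg2, which encode proteins of basement membranes. They were taken by name from the deposited table of transcript levels, which is labelled as data of status OK. Transcripts without that status were not analysed here, which limits the genes and isoforms covered. The symbol in the description field found 7 of the 8, and Fbln1, whose row has no description, was found by its RefSeq accession NM_001347088. These 8 were among 11258 genes with values. Each has 1 listed transcript, which for 7 of them is the only curated RefSeq mRNA, while the listed Fbln1 transcript is 1 of 2. The set was chosen by name with earlier results of these libraries known, including the FPKM values and the differences between groups. The differences between groups are therefore given as a description.

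The samples were cultures of dissociated dorsal root ganglion neurons from mouse embryos of day 13.5. Control cultures (2 libraries) received a pLKO lentivirus and PROM1 cultures (2 libraries) a lentivirus for overexpression of human PROM1, also called CD133, a cholesterol-binding glycoprotein of membrane protrusions. The labels give no strain, no promoter for PROM1 and no share of infected cells, and the level of PROM1 was not analysed here. All cultures grew on poly-D-lysine and laminin in medium with 50 ng/ml nerve growth factor and 1 μM fluorodeoxyuridine with uridine. Fluorodeoxyuridine acts against dividing cells. Virus was added on day 2 in vitro. The culture day recorded for all samples was day 5 in vitro, but the labels do not say whether RNA was taken then. Polyadenylated RNA was read as 50-nt single ends, and the labels give RNA of over 200 nt. The series describes the groups as biological duplicates, but the labels do not say how the cultures were kept apart, so the spread between libraries may in part be technical.

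Interstitial matrix is the fibrous material laid down mainly by mesenchymal cells. Type I collagen, its main fibre in most tissues, is a trimer of α1 and α2 chains, type V collagen takes part in starting its fibrils, and biglycan is a small leucine-rich proteoglycan that binds them. Basement membranes are thin sheets that surround Schwann cells, blood vessels and muscle. They consist of laminin trimers and a type IV collagen network, bridged by nidogen and by perlecan, the heparan sulfate proteoglycan encoded by Hspg2. In peripheral ganglia, fibroblasts, vascular cells and glia are known sources of both kinds of matrix, and laminin is a classical substrate for the growth of sensory axons.

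In PROM1 cultures the libraries held more RNA of both type I collagen chains and of biglycan, at 3.67 to 4.27 times the control means, while the basement membrane genes Col4a1, Lamb1 and Hspg2 differed by at most 1.24-fold. Col5a1 was lower, by 1.53-fold. Fbln1 and Lamb1 had overlapping groups, as did Col4a1. Values are FPKM, fragments scaled by transcript length and mapped total, so that levels can be compared between genes. Over all genes tested, limma called 0.0198% (2 of 10108) at an adjusted p under 0.05. Both were microRNA precursor records lower in PROM1 cultures, Mir6945 and Mir3470b, with 0 FPKM in each PROM1 library. With 1 row per transcript, limma called 0 higher and 0 lower. Of the 8 matrix genes 0 were called by limma, and 2, Col1a1 and Bgn, had an unadjusted p under 0.05, against 4.7% of all genes. The authors' deposited table had 0 of the 8 marked significant, against 0.204% of all transcripts. An exact permutation test of 2 libraries against 2 cannot give a two-sided p under 0.333.

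**Figure D1:**
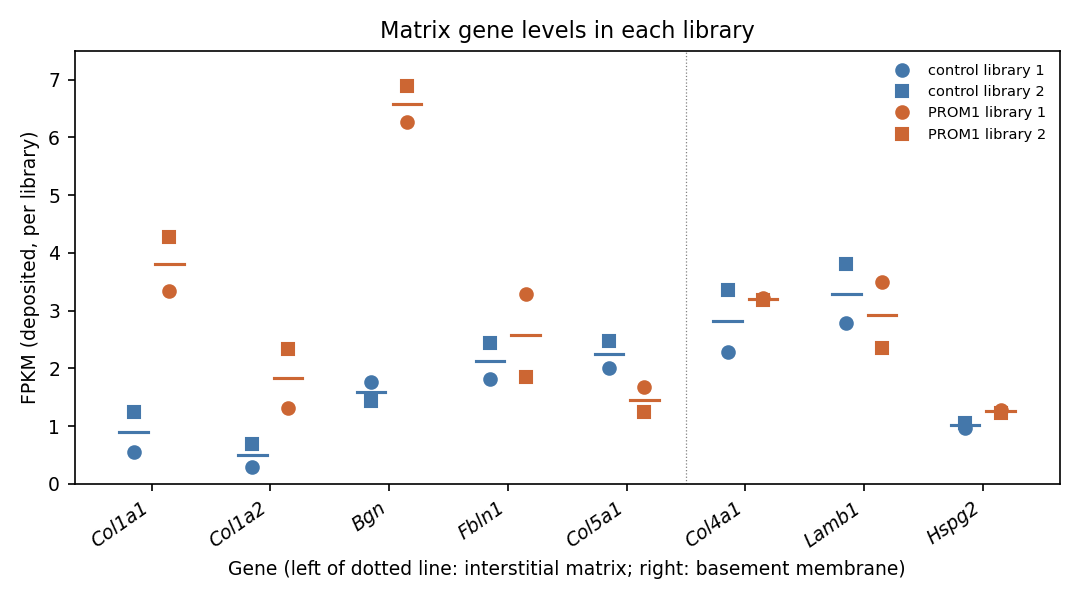
FPKM of the 8 matrix genes (vertical axis) in each library, with circles for library 1, squares for library 2 and short bars for group means (n = 2). The PROM1 values of Col1a1, Col1a2 and Bgn lie above the control values, those of Col5a1 lie below, and the groups of Fbln1, Col4a1 and Lamb1 overlap.

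Col1a1, the α1 chain of type I collagen, measured 0.545 and 1.24 FPKM in control libraries 1 and 2 and 3.33 and 4.28 FPKM in PROM1 libraries 1 and 2. The PROM1 libraries were both the higher, and the control libraries differed from each other more, as a ratio, than the PROM1 libraries did. The means were 0.892 ± 0.491 and 3.81 ± 0.671 FPKM (SD, n = 2), a ratio of 4.27. On the log2(FPKM + 1) scale, on which changes of low genes look smaller, the difference of PROM1 minus control was 1.36 ± 0.35 (SE, limma). It ranked 108 from the top among the 10108 genes tested, and with a pseudocount of 0.1 it was 2.06.

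Col1a2, the α2 chain, had 0.302 and 0.694 FPKM in the control libraries and 1.32 and 2.34 FPKM in the PROM1 libraries. As for Col1a1, the groups did not overlap, and library 2 was the higher in both groups. The log2 difference was 0.91 ± 0.40 (SE). With a library left out it ranged from 0.64, without PROM1 library 2, to 1.17, without PROM1 library 1, and with a pseudocount of 0.1 in place of 1 it was 1.72. Both type I collagen genes had control means under 1 FPKM and entered the test, which asked for an average of 1 FPKM or more, through their PROM1 values. No count over the 8 genes is therefore used as support for a direction.

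Within each library the level of Col1a1 was above that of Col1a2. The ratio of Col1a1 to Col1a2, both per length, was 1.81 and 1.78 in the control libraries and 2.53 and 1.83 in the PROM1 libraries. In 3 of the 4 libraries the ratio thus stood between 1.78 and 1.83, while PROM1 library 1 stood apart at 2.53. Type I collagen protein is known to contain more α1 than α2 chain.

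Bgn, which encodes biglycan, measured 1.76 and 1.43 FPKM in control cultures and 6.26 and 6.90 FPKM in PROM1 cultures. The libraries within each group were close and the groups lay far apart. The means were 1.60 ± 0.235 and 6.58 ± 0.448 FPKM (SD, n = 2), a ratio of 4.12, and the log2 difference was 1.55 ± 0.27 (SE), ranking 77 from the top among the genes tested. Leaving out each library in turn gave 1.45 to 1.64, the narrowest span relative to the difference among the interstitial matrix genes. In the authors' deposited table, Bgn had p = 0.00515 and q = 0.629, and Col1a1 had p = 0.0015 and q = 0.375. The authors' deposited table gave 1.82 and 7.23 FPKM as the group values of Bgn, a 3.98-fold difference.

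The promoters of Col1a2 and Bgn, which were higher in PROM1 libraries, are shown beside that of Col5a1, which was lower. They are RefSeq windows of build GRCm38.p6, upstream of the RefSeq start site and cut where a GENCODE M21 exon begins. Capitals mark GGGCGG on either strand (CCGCCC when read on the other), the core of a GC box bound by Sp1-type factors. Col1a2 is chr6:4505368-4505492 on the plus strand, Bgn is chrX:73483351-73483600 on the plus strand, and Col5a1 is chr2:27886175-27886424 on the plus strand.
Col1a2: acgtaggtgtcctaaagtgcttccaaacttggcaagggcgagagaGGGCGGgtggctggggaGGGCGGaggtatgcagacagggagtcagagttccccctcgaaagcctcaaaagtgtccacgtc
Bgn: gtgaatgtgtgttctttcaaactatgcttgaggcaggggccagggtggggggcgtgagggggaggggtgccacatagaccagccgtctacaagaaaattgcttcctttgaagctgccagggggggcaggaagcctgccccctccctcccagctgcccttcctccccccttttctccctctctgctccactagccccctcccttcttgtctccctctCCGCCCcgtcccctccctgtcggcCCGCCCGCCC
Col5a1: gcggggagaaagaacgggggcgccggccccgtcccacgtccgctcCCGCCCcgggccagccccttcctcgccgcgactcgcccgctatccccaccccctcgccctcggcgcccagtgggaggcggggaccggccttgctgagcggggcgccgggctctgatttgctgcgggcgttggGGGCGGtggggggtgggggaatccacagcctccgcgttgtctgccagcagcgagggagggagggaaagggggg

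The reference table held promoter windows for 7 of the 8 genes, and none was printed for Col1a1. In the full window of 300 bases, 250 before the start site and 50 after, GGGCGG was sought on either strand. It occurred at 3 places for Bgn, of which 2 overlap, 2 for Col1a2, 2 for Col5a1 and 5 for Hspg2. It also occurred at 1 place for Col4a1, at 2 for Lamb1 and at 2 in 1 window of Fbln1, whose other window had 0. Of 32851 mouse promoter windows of the same length, 35.7% hold it. CCAAT, the core of a box bound by NF-Y, was found on either strand in the windows of Col1a2, Col4a1 and Lamb1 and in 37.4% of all windows. It was not among the letters of the Bgn, Col5a1, Hspg2 and Fbln1 windows. TATAAA was found in none of these windows and in 13.6% of all. GGGCGG thus stood in the windows of genes that were higher, lower and close to even. These matches are a description of the letters.

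Col5a1, the α1 chain of type V collagen, had 2.00 and 2.48 FPKM in the control libraries and 1.68 and 1.25 FPKM in the PROM1 libraries. The PROM1 libraries were both the lower, the opposite side from the type I chains. The means were 2.24 ± 0.337 and 1.46 ± 0.303 FPKM (SD, n = 2), and the log2 difference was -0.40 ± 0.32 (SE). Leaving out PROM1 library 2 gave -0.27 and leaving out PROM1 library 1 gave -0.52. Of all genes tested, 17.5% showed this order, with each PROM1 library under each control library.

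Fbln1, which encodes the elastic-fibre and basement-membrane protein fibulin 1, measured 1.82 and 2.44 FPKM in control cultures and 3.29 and 1.85 FPKM in PROM1 cultures. PROM1 library 1 was the highest of the 4, and PROM1 library 2 lay between the control libraries. The log2 difference was 0.17 ± 0.35 (SE) and was -0.13 without PROM1 library 1. These values belong to 1 of the Fbln1 isoforms and not to the gene as a whole.

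Among the basement membrane genes, Col4a1, the α1 chain of type IV collagen, had 2.28 and 3.35 FPKM in control cultures and 3.21 and 3.19 FPKM in PROM1 cultures. The PROM1 libraries were nearly equal and lay between the control libraries. The log2 difference was 0.15 ± 0.30 (SE), and -0.0502 without control library 1. Its partner chain Col4a2 was at 9.31 and 10.7 against 13.2 and 7.78 FPKM, with a log2 difference of 0.0239 ± 0.30 (SE).

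Lamb1, the β1 chain of laminin, had 2.78 and 3.81 FPKM in control cultures and 3.50 and 2.35 FPKM in PROM1 cultures. The lowest and the second highest values were both from PROM1 cultures. The log2 difference was -0.13 ± 0.32 (SE), and it was 0.0395 without control library 2 and 0.0793 without PROM1 library 2. Lamc1, the γ1 chain that joins β chains in most laminins, was at 4.34 and 6.02 against 5.70 and 5.69 FPKM. Lamb2, the β2 chain, stood at 4.58 and 4.19 against 5.54 and 5.07 FPKM, so that its PROM1 values were both the higher.

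Hspg2, which encodes perlecan, had 0.977 and 1.05 FPKM in control cultures and 1.28 and 1.23 FPKM in PROM1 cultures. The groups did not overlap, but they lay close together, with means of 1.01 ± 0.0502 and 1.25 ± 0.0359 FPKM (SD, n = 2). The log2 difference was 0.16 ± 0.34 (SE), where limma takes the spread largely from other genes of like level. It was 0.14 to 0.19 with a library left out and 0.28 with a pseudocount of 0.1.

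Counted together, 4 of the 8 genes had each PROM1 library above each control library, against 16.5% of all genes tested, and 1 had both below. The median log2 difference was 0.17 for the 8 genes and -0.03 for all genes tested, while the central 90% of all tested genes ran from -0.73 to 0.72. Col1a1, Col1a2 and Bgn lay above that span and the other members lay inside it. These counts describe a set picked with the values known.

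**Figure D2:**
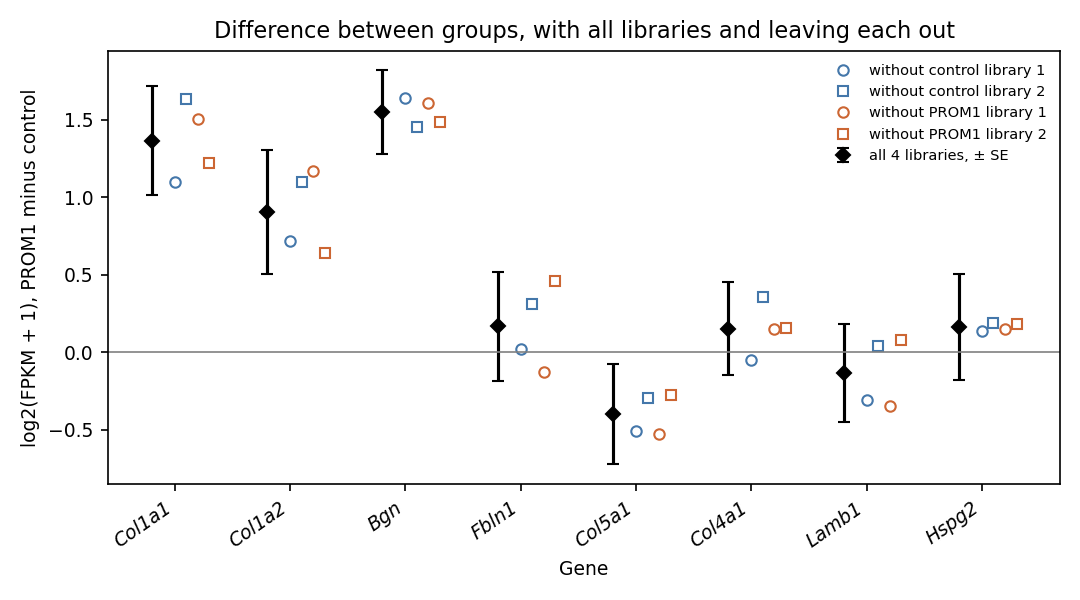
Difference of PROM1 minus control on the log2(FPKM + 1) scale (vertical axis) for the 8 genes, with all 4 libraries (diamond, bar ± SE from limma) and with each library left out (open marks). Bgn stays between 1.45 and 1.64, while Fbln1, Col4a1 and Lamb1 cross 0.

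The levels of the 8 genes were low for this table. Col1a2 and Hspg2, with the lowest means over the 4 libraries, stood above 13.0% and 12.5% of the 11258 genes, and Bgn, with the highest mean, above 41.5%. In control cultures the order of the mean levels ran from Lamb1 (3.29 FPKM) and Col4a1 (2.82 FPKM) through Col5a1, Fbln1 and Bgn down to Hspg2, Col1a1 and Col1a2. The ranges of Lamb1 and Col4a1 (SD 0.727 and 0.757 FPKM), Col4a1 and Col5a1, Col5a1 and Fbln1, and Col1a1 and Col1a2 overlapped across the control libraries, but within each control library these neighbours kept the same order. Hspg2 and Col1a1 changed places between the control libraries. In PROM1 cultures the order began with Bgn (6.58 FPKM) and Col1a1 (3.81 FPKM) and ended with Col5a1 (1.46 FPKM) and Hspg2 (1.25 FPKM). Both libraries of Bgn stood above both of Col1a1 there, while the values of Lamb1 overlapped with those of Col1a1 and spanned those of Col4a1.

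At equal FPKM a longer transcript is backed by more fragments. Multiplying FPKM by the transcript length in GENCODE M21 gave about the number of fragments implied per 1000000 mapped. For Col1a2 (5348 nt) this was 1.61 and 3.71 in control and 7.04 and 12.5 in PROM1 libraries. Bgn, the shorter transcript at 2419 nt, had 4.27 and 3.47 against 15.2 and 16.7. Hspg2, the longest at 14176 nt, had 13.8 to 18.1 over the 4 libraries, so its even values rest on more fragments than those of the type I chains in control cultures. The mapped totals are unknown, so no counting interval can be given.

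Chains that assemble in 1 protein, and the alternative laminin chains Lamb1 and Lamb2, were also compared within each library. Col4a1 stood at 0.245 and 0.314 of the level of Col4a2 in the control libraries and at 0.244 and 0.410 in the PROM1 libraries. Their reference start sites lie head to head, with first exons that overlap by 22 bases, and the use of strand in the counting is not given, so reads in that overlap cannot be told apart. Lamb1 stood at 0.640 and 0.632 of the level of Lamc1 in the control libraries and at 0.614 and 0.413 in the PROM1 libraries. The ratio of Lamb1 to Lamb2 was 0.607 and 0.909 in control and 0.632 and 0.463 in PROM1 cultures. PROM1 library 2 had the lowest value in both laminin ratios, and library 1 of each group had nearly the same value in the ratio of Lamb1 to Lamb2.

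**Figure D3:**
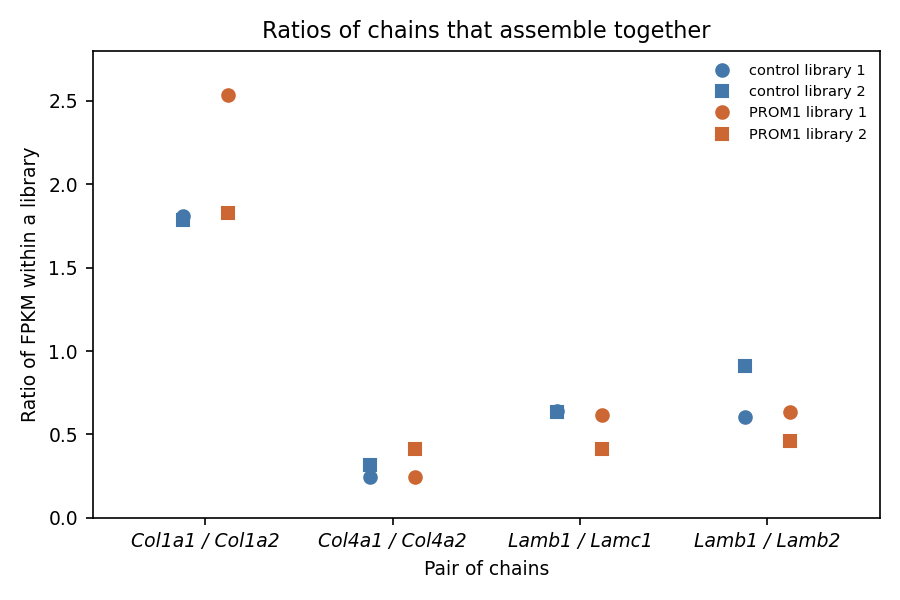
Ratio of FPKM of 2 chains within a library (vertical axis) for 4 pairs of chains that occur in the same kind of trimer or, for Lamb1 and Lamb2, in alternative laminins. Col1a1 to Col1a2 is near 1.8 in 3 libraries and 2.53 in PROM1 library 1, and the ratios of the other pairs stay under 1.

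Other matrix genes were taken from lists of textbook members. Coverage was partial, since 1 of 16 interstitial collagens, 5 of 21 basement membrane components and 4 of 23 interstitial proteoglycans and glycoproteins were tested. Genes such as Col3a1 and Dcn were not analysed here. Of all these tested genes 0 were called by limma in either direction, and the counts that follow are of higher and lower means. Of all genes tested, 46.5% were higher in PROM1 libraries. Col18a1, Serpinh1, Plod2 and Mmp14 had control means under 1 FPKM and entered the test through their PROM1 values. Mmp11 entered it through its control values. The counts are therefore not used as support for a direction.

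Of the basement membrane components, 4 were higher and 1 was lower, with a median log2 difference of 0.13. Col18a1, chosen after its values were seen, had the largest difference of the 5, at 0.57 ± 0.38 (SE). It measured 0.478 and 1.23 FPKM in control libraries and 1.61 and 1.80 FPKM in PROM1 libraries. The most abundant was Agrn, which encodes the heparan sulfate proteoglycan agrin, at 24.6 and 21.7 against 23.0 and 20.9 FPKM. The only interstitial collagen tested was Col6a2, a chain of microfibrillar type VI collagen, which measured 29.4 and 30.2 FPKM in control cultures and 19.1 and 18.2 FPKM in PROM1 cultures. Its groups did not overlap, its libraries agree closely within each group, and its log2 difference was -0.65 ± 0.19 (SE; limma unadjusted p = 0.0164, adjusted p = 0.939). Col6a2 and Col5a1 thus lay on the opposite side from Col1a1 and Col1a2.

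Of the interstitial proteoglycans and glycoproteins, 1 had a higher mean and 3 had lower means (median -0.06). Ncan, which encodes the neural proteoglycan neurocan, had a log2 difference of -0.15 ± 0.23, Eln (elastin) of -0.09 ± 0.31 and Fbn2 (fibrillin 2) of 0.20 ± 0.32 (SE).

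The enzymes and chaperones that fold, modify and crosslink collagen numbered 12 tested of 29, with 7 higher and 5 lower and a median of 0.08. P4hb, the protein disulfide isomerase that is a subunit of prolyl 4-hydroxylase, had a log2 difference of -0.02 ± 0.20 (SE). Colgalt1, a collagen galactosyltransferase, was at -0.28 ± 0.23 and Sec23a, a coat protein of vesicles that export procollagen, at -0.20 ± 0.21 (SE). Serpinh1, the collagen chaperone HSP47, was chosen after its values were seen. Its 1 listed transcript had 0.233 and 0.723 FPKM in the control libraries and 0.688 and 3.65 FPKM in the PROM1 libraries, so that the groups overlap and PROM1 library 2 alone is high.

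Of 12 tested matrix receptors, 5 had higher and 7 lower means (median -0.07). Sdc3, the neuronal syndecan, Itga3, a laminin-binding integrin chain, and Dag1, which encodes dystroglycan, had log2 differences of -0.16 ± 0.19, -0.11 ± 0.20 and -0.07 ± 0.23 (SE). Itga9, an integrin chain that binds tenascin C, was chosen after its values were seen. It had 4.36 and 2.69 against 6.41 and 6.70 FPKM, so that the groups did not overlap, and a log2 difference of 0.77 ± 0.29 (SE; limma unadjusted p = 0.0435, adjusted p = 0.939). Of 9 tested matrix proteases and inhibitors, 5 had higher and 4 lower means (median 0.12). The abundant Timp2, a metalloprotease inhibitor, was at -0.04 ± 0.19, the membrane-bound metalloproteases Mmp15 and Mmp24 at 0.12 ± 0.22 and -0.24 ± 0.18 (SE). The genes at the ends of this list were chosen after their values were seen. Mmp14, the membrane-bound collagenase, had 0.481 and 0.877 against 1.57 and 3.54 FPKM. The 1 listed transcript of Mmp11, stromelysin 3, had 2.83 and 6.87 FPKM in control libraries against 0.546 and near 0 in PROM1 libraries. Other Mmp11 isoforms were not analysed here. The log2 difference of Mmp14 was 1.03 ± 0.42 (SE; limma unadjusted p = 0.0547, adjusted p = 0.939). That of Mmp11 was -2.14 ± 0.48 (SE; limma unadjusted p = 0.00564, adjusted p = 0.939). The authors' deposited table gave p = 0.0019 and q = 0.423 for Mmp14, and p = 0.1698 and q = 0.8645 for Mmp11.

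**Figure D4:**
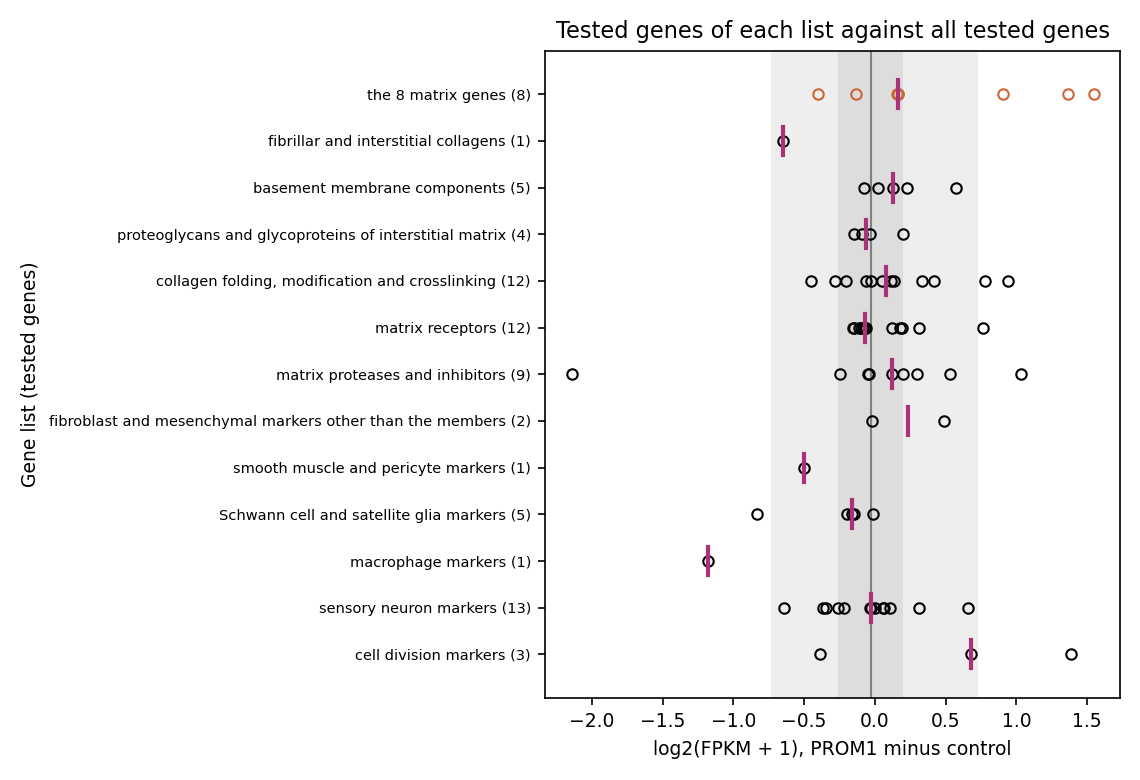
Difference of PROM1 minus control on the log2(FPKM + 1) scale (horizontal axis) for each tested gene of each list (open circles, number tested in parentheses), with the list median (vertical bar). Grey bands hold the central 50% and 90% of all 10108 tested genes, and the grey line is their median, -0.03.

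Another 12 matrix genes of these lists had values but a mean under 1 FPKM and were not tested. The PROM1 values both exceeded the control values for 6 of them and were both lower for 2. Of all 1150 genes under that level the shares were 22.8% and 20.7%. The 6 were Sparc, a collagen-binding glycoprotein, the laminin chain Lama4, the nidogen Nid1, the fibronectin gene Fn1, the prolyl 4-hydroxylase subunit P4ha3 and the protease Adamts9. Sparc had 0.405 and 0.476 against 0.813 and 1.29 FPKM, Nid1 had 0.285 and 0.349 against 0.484 and 0.870 FPKM, and Lama4 had 0.334 and 0.541 against 1.96 and 0.786 FPKM. The values of Sparc and Fn1 are of 1 listed isoform each. The 2 lower genes were Loxl1, a lysyl oxidase, and Tnr, the neural glycoprotein tenascin R, at 1.36 and 1.66 against 0.536 and 0.445 FPKM.

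The cultures carried neuronal transcripts at far higher levels. Tubb3, Prph and Uchl1, markers of sensory neurons, had means of 637.5, 1030 and 1965 FPKM over the 4 libraries, and 6 of 13 tested neuronal markers were higher and 7 lower in PROM1 cultures. Their summed level was 4850 and 5234 FPKM in the control libraries and 4251 and 4888 FPKM in PROM1 libraries. Markers of other cells were thinly covered. Of 15 further fibroblast and mesenchymal markers 3 had values, of which 2 were tested. Vim, which neurons of this age also express, was at 1957 to 2228 FPKM with a log2 difference of -0.02 ± 0.20 (SE), and Thy1, expressed by neurons as well, was at 2.13 and 0.988 against 1.53 and 3.87 FPKM. Pi16, a marker of some fibroblasts, averaged under 1 FPKM and was not tested. It had 0.865 and 0.951 FPKM in the control libraries and 0.326 and 0.188 FPKM in the PROM1 libraries, both lower, the opposite side from Col1a1, Col1a2 and Bgn. The summed level of these 3 was 2071 and 2164 FPKM in the control libraries and 2230 and 1961 FPKM in PROM1 libraries, nearly all of it Vim. Pdgfra, Pdgfrb, Col3a1, Dcn and Lum were not analysed here.

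Of the smooth muscle and pericyte markers, Acta2 alone had values, at 3.63 and 3.83 against 3.43 and 1.51 FPKM. The 5 tested glial markers, of 13, all had lower means, with a median log2 difference of -0.16 and a summed level of 76.5 and 56.3 FPKM in control against 44.7 and 45.9 FPKM in PROM1 libraries. Most of the fall in the sum was Pmp22, at 44.9 and 28.8 against 18.8 and 20.7 FPKM. Of these markers, Pmp22 had a log2 difference of -0.83 ± 0.27, Mbp of -0.20 ± 0.21 and S100b of -0.15 ± 0.40 (SE). Gjc3 was at -0.16 ± 0.38 and Sox10 at -0.01 ± 0.41 (SE). The groups of S100b, Gjc3 and Sox10 overlapped. Of the macrophage markers, C1qb had 2.30 and 3.51 FPKM in the control libraries and 0.339 and 1.16 FPKM in the PROM1 libraries, both lower. Aif1, not tested, had 1.50 and 0 against 1.45 and 0.821 FPKM, so that its groups overlap. None of 10 endothelial markers was analysed here. The 3 cell division markers with values summed to 7.11 and 11.8 FPKM in the control libraries and to 10.8 and 20.4 FPKM in PROM1 libraries. Among them Pcna was at 3.68 and 9.59 against 8.54 and 12.3 FPKM and Mcm2 at 2.75 and 2.26 against 1.65 and 1.68 FPKM, while Birc5, at 0.678 and 0 against 0.566 and 6.34 FPKM, was high in PROM1 library 2 alone. The part of these cell types in the values of Col1a1, Col1a2 and Bgn was not tested, and in RNA of whole cultures more cells of a type and more RNA per cell cannot be told apart.

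The genes whose profile over the 4 libraries was nearest to that of Col1a1, by Euclidean distance between centred log2(FPKM + 1) values, were Ddit3, Coprs, Wdr53, Nr6a1 and Trib1, at distances of 0.12 to 0.23. Ddit3, which encodes the stress-induced transcription factor CHOP, had 11.7 and 19.6 against 36.5 and 45.9 FPKM. Only 4 of the genes tested lay within 0.2 of Col1a1. The nearest gene to Col4a1 was the laminin chain Lamc1, at 0.0268, followed by Tob2, Dclk2, Bcl2 and Srpr, but 279 genes lay within 0.2 of Col4a1. With 4 libraries such nearness describes the profiles only.

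Library FPKM summed to between 357805 and 385963. The number of transcripts at exactly 0 was 89 and 283 in the control libraries and 121 and 237 in the PROM1 libraries, so that library 2 of each group had more. Bgn was lower in library 2 than in library 1 of the control group and higher in library 2 of the PROM1 group, while Col1a1 and Col1a2 were higher in library 2 of both.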

How the data were processed

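The members and gene lists were chosen with earlier results of these data known. Per the submitters' processing notes, CASAVA, TopHat2 and build mm9 were used, with an annotation and strand setting not given in the sources used here. Per the file headers, the authors deposited a Cufflinks FPKM for each transcript and library and 1 FPKM per group. Per the file headers, they also deposited p-values and q-values of their comparison, a log2 ratio of the groups, and the −log10 of the p-values (not used). The table, labelled as status OK, has 14236 transcripts, 241 of them named here by accession through a RefSeq table (GRCm38.p6). Transcripts with a missing value (39) were left out, and FPKM were summed per symbol.

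The 10108 genes that averaged 1 FPKM or more were fitted on log2(FPKM + 1) with limma 3.58.1 (R 4.3.3, trend on level), 2 PROM1 against 2 control libraries, Benjamini-Hochberg adjusted, threshold 0.05; the fit was tested on simulated data. No steps of whole reads were found in low FPKM (no log2 ratio between libraries, rounded to 0.01, was shared by over 3.95% of 76 to 111 transcripts), so the depth is unknown. Named genes were all 8 matrix genes, partner chains, list genes past the threshold and up to 6 called genes. To these came up to 3 tested genes of each list with the highest mean level and the 5 nearest profiles to Col1a1 and to Col4a1. Further genes were named for their values or for how they entered the test. Lists were described by counts and medians. Protein sequences were not used here. Alternatives were another pseudocount (0.1), filters, scalings, a replicate block, each library left out, transcripts in place of genes, and the authors' group values.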

Additional observations from a re-analysis of the deposited data

How the results depend on the processing

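None of the 8 genes was called by limma in any alternative with a test. Col1a1, Col1a2, Bgn, Col5a1 and Hspg2 kept their directions, but their groups do not overlap, so leaving out a library or changing the pseudocount could not turn them. Removing the filter, blocking on the replicate number or using transcripts cannot move the difference of a gene with 1 transcript. The other alternatives, both scalings and the authors' group values, also kept the directions of these genes. The scalings moved the median over all genes only from -0.0286 to -0.00471 and 0.00563. They could hardly have turned differences as large as those of Col1a1, Col1a2 and Bgn. The authors' group values come from the same libraries, so the kept directions are no independent support. Col1a1 ranged from 1.10 (without control library 1) to 2.06, Col1a2 from 0.64 (without PROM1 library 2) to 1.72 and Bgn from 1.45 to 1.98, each highest with a pseudocount of 0.1. Col4a1 turned to -0.0502 without control library 1 (0.36 without control library 2) and Fbln1 to -0.13 without PROM1 library 1 (0.46 without PROM1 library 2). Lamb1 turned to 0.0395 without control library 2 and to 0.0793 without PROM1 library 2, and was lowest, at -0.35, without PROM1 library 1. With a mean of at least 5 FPKM none of the 8 was left to test. Over all genes, limma called 0 higher and 2 lower. It called 1 higher with a pseudocount of 0.1 and 0 lower with 1 row per transcript. Without each library in turn, it called 0 to 12 higher (12 without PROM1 library 2, 3 without PROM1 library 1) and 1 to 5 lower (5 without control library 2, 1 without PROM1 library 1). A lone library was assumed to vary like the other group. The cause of these moves was not tested. The replicate block gave 0 higher and 2 lower. The labels do not say what the shared numbers mean, and the deviations of same-numbered libraries correlated at 0.139 over genes. The most alike pair of libraries came from opposite groups, control library 1 and PROM1 library 1, which correlated at 0.945 over tested genes. The control pair stood at 0.924 and the PROM1 pair at 0.917, and the other pairs across groups at 0.902 to 0.916. Unknown depth limits what can be said of genes near 1 FPKM.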
